A study of Mus musculus with 9 samples.

Results

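The 5 NF-kB subunit genes, Nfkb1, Nfkb2, Rel, Rela and Relb, were taken by gene name from the 15384 genes of the count table of ASPN-treated MyC-CaP cells, and each name matched 1 row. NF-kB is a dimer of these proteins that binds kB sites in DNA. Rela, Rel and Relb carry the transactivation domain, whereas Nfkb1 and Nfkb2 encode the precursors p105 and p100, which are processed to the DNA-binding subunits p50 and p52. In resting cells IkB proteins hold the dimers in the cytoplasm. In the canonical pathway a kinase complex (IKK) marks IkB for degradation and frees mainly Rela-p50 and Rel-p50 dimers, and in the noncanonical pathway the kinase NIK and IKK-alpha lead to processing of p100 and release of Relb-p52. Several subunit and IkB genes are themselves known targets of NF-kB, and the pathway is known for inflammatory gene expression in epithelial and immune cells.

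MyC-CaP cells are androgen-responsive prostate cancer cells of the mouse. ASPN, or asporin, is secreted by stromal fibroblasts around tumors. The RNA-Seq counts of 9 libraries were used, 3 for each of 0, 12 and 24 hours with 100 ng/mL recombinant mouse ASPN, to ask which transcripts differ after the cells meet this protein. All cells had first been kept for 6 to 12 hours without serum and calcium. The labels list ASPN as the treatment of the 0-hour libraries too, which were used as time 0. No library of cells kept for 12 or 24 hours without ASPN was analysed, so the effect of ASPN and that of the hours in culture cannot be told apart. The line is 1 cell line grown in wells plated in triplicate, and the labels call the libraries of a time biological replicates. Whether the wells came from separate cultures is not stated, so p-values measure the spread between these libraries, which may be technical.

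Library totals were 41881191 to 52993821 counts, at which 3 counts of a gene are worth 0.0566 to 0.0716 CPM (counts scaled by library total). No 2 libraries of a time were alike within sampling noise (chi-square divided by its degrees of freedom, 3.48 to 18.2), so each stood as 1 replicate. TMM factors, which scale libraries for the makeup of their RNA, ran from 1.04 to 1.07 for the time 0 libraries, from 1.04 to 1.05 for 12 hours and from 0.898 to 0.911 for 24 hours. Mitochondrial genes took 2.6% to 2.71% of counts at time 0 and 2.63% to 2.85% at 12 hours, but 0.113% to 0.203% at 24 hours. The part of this shift in the 24-hour results was not tested. Of the prostate epithelial markers reported here, Hoxb13 (3129 to 5021 counts per library) and Krt8 (1162 to 2038) were well covered, whereas Krt18 had at most 22 counts, Cdh1 at most 10, and Epcam and Krt5 at most 1. Of the markers of other cell types, the leukocyte list (5 of 8 in the table) had at most 6 counts for any gene and summed to 0.128 to 0.166, 0.0215 to 0.131 and 0.0981 to 0.19 CPM at the 3 times. The endothelial list (3 of 4 in the table) summed to 0.11 to 0.145, 0.0656 to 0.183 and 0.0415 to 0.123 CPM, and the fibroblast list (4 of 6) to 12.9 to 14.1, 12.2 to 12.5 and 9.12 to 10.3 CPM. In the fibroblast list Pdgfra had 350 to 689 counts per library and a log2 difference of -0.51 ± 0.09 at 24 hours against time 0 (adjusted p = 0.000128, edgeR), under the fold threshold. Dcn had 7 to 29 counts, with overlapping groups and means of 0.181, 0.234 and 0.419 CPM at the 3 times. It was called higher at 24 hours against time 0 (1.2 ± 0.49, adjusted p = 0.0437, edgeR), but it passed the filter on low counts only through the 24-hour libraries, so nothing is read from that call. The part of these markers in the results was not tested. In these bulk libraries, fewer cells with a transcript and less of it per cell cannot be told apart.

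The 5 genes lie on 4 chromosomes of the GRCm38 build. Nfkb1 (ENSMUSG00000028163.17) spans chr3:135584655-135691547 on the minus strand, Rel (ENSMUSG00000020275.9) chr11:23736847-23770970 on the minus strand, and Relb (ENSMUSG00000002983.17) chr7:19606217-19629438 on the minus strand. Nfkb2 (ENSMUSG00000025225.15) spans chr19:46304320-46312385 and Rela (ENSMUSG00000024927.8) chr19:5637483-5648130, both on the plus strand. All 5 starts and ends were the same in GENCODE release M21. The last 299 bases of Nfkb2 overlap Psd, a protein-coding gene on the opposite strand, and as the counting strand is not stated, reads there cannot be assigned to either gene with certainty. Psd had 566 to 699 counts per library at 0 hours, 1079 to 1373 after 12 hours and 610 to 806 after 24 hours, against 2957 to 3572, 6212 to 7472 and 5546 to 7773 for Nfkb2. Nfkb2 and Nfkb1 also overlap genes that are not in the count table (AC114539.1 by 1292 bases and Gm43430 by 3897 bases).

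Sequences around the start sites are shown as a description, with matches to the kB consensus marked. A link between these matches and the changes in mRNA was not tested. RefSeq promoter windows (GRCm38.p6, from 250 bases before to 50 after a start site) were found for 3 of the 5 genes: 1 window each for Rel and Rela and 3 for Nfkb2. Entries for Nfkb1 and Relb were not found. On both strands, the 10-letter kB consensus occurred in 2779 of 32851 windows (8.46%). In the lines below, capitals mark a match to it (in the first Nfkb2 stretch, the first of 2 that overlap), and every run reads 5′ to 3′ on the strand of its gene.
Rel, chr11:23770971-23771219, minus strand: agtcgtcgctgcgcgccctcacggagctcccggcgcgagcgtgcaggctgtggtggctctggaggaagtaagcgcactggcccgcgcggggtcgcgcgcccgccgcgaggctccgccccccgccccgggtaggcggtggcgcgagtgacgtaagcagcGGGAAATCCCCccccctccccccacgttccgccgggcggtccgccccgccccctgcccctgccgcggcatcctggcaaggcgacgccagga
Rela, chr19:5637291-5637482, plus strand: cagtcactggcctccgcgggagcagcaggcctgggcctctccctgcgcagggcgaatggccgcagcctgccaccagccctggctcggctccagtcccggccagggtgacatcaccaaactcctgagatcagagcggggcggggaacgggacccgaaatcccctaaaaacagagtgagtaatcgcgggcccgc
Nfkb2, chr19:46304688-46304717, plus strand: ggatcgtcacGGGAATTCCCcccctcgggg
Nfkb2, chr19:46304716-46304745, plus strand: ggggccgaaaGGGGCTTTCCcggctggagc
Nfkb2, chr19:46305449-46305478, plus strand: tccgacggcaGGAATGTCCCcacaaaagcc
Nfkb2, chr19:46305695-46305724, plus strand: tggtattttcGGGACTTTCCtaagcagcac
The Rel run holds 2 matches that overlap by all but 1 base, the first of them GGGAAATCCC, whose first base is at -92 from the start and which is found in 0.0944% of windows. The Rela run and the rest of its window hold no match, which says only that these letters are absent from this stretch. The first Nfkb2 stretch centers on GGGAATTCCC at -39 (0.0396% of windows), again with a match shifted by 1 base, and the match of the second lies at -11 from the same start. All 250 bases of the window before that start lie in M21 exons of Nfkb2 itself. The match of the third lies on the opposite strand, at -236 from the second Nfkb2 start. GGGACTTTCC in the fourth (0.155% of windows) lies 10 bases after that start and at -225 from the third start. Of the 250 bases before the third start, 234 lie in M21 exons of Nfkb2. A match is a description of the sequence and not a site of binding.

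Between time 0 and 12 hours, the mRNAs of Relb, Nfkb2 and Rel rose, by 5.46-, 2.31- and 2.03-fold, whereas Nfkb1 and Rela were 1.49- and 1.3-fold higher and stayed under the fold threshold. At 24 hours the same 3 genes passed the test against time 0, at 5.48-, 2.31- and 2.23-fold, and between 12 and 24 hours no subunit passed it. Calls needed both a fold change of 1.5 or more and an adjusted p that did not exceed 0.05 (edgeR's quasi-likelihood test, Benjamini-Hochberg over all tested genes). All 5 subunits were tested in each comparison. At 12 hours 3 of 5 were called, all higher, against 1.6% of the 11410 genes tested (1.5% called higher). At 24 hours 3 of 5 were called, all higher, against 28.8% of 11444 (12% called higher). Between 12 and 24 hours 0 of 5 were called, against 25.7% of 11394 genes, with 2 at an unadjusted p under 0.05 in edgeR and 0 called by DESeq2 or limma-voom. The 12- and 24-hour comparisons share the time 0 libraries. All 3 libraries of the later time lay above all 3 of time 0 for 5 of 5 subunits at 12 hours, against 13.7% of tested genes, and for 5 of 5 at 24 hours, against 35.9%. The adjusted p alone was 0.05 or less for 5 of 5 at both times, against 10.3% of tested genes at 12 hours and 70.9% at 24 hours. The median log2 fold change of the subunits was 1.02 at 12 hours and 1.16 at 24 hours, beside 0 and -0.02 over all tested genes.

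**Figure D1:**
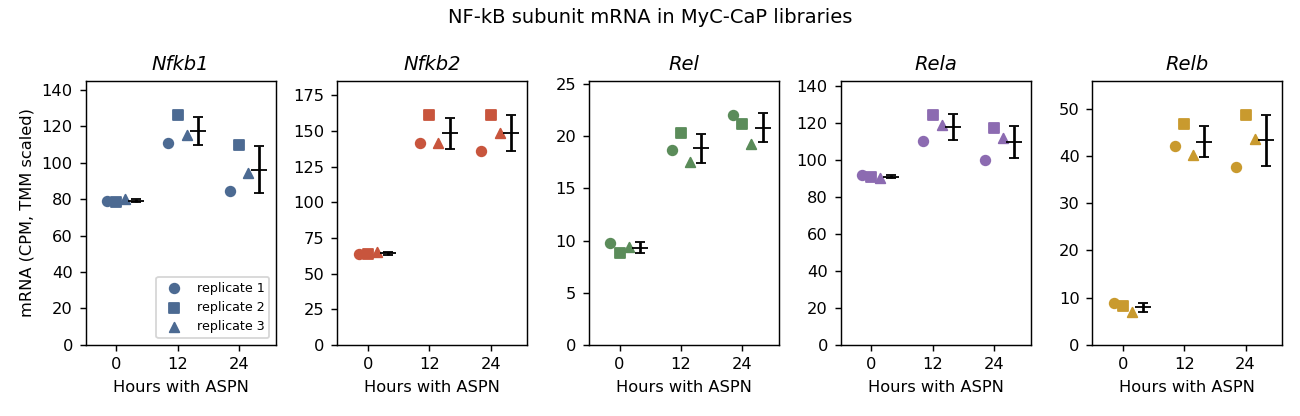
TMM-scaled CPM (y axis, from 0, a separate scale for each gene) of the 5 subunits in each of the 9 libraries, by hours with ASPN (x axis). Marker shapes give the replicate number, and bars are the mean ± SD of 3 libraries. For each subunit the 12- and 24-hour libraries lie above those of time 0, with the largest fold for Relb (6.91 to 8.75 CPM at time 0 and 37.7 to 48.6 at 24 hours).

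Relb, the transactivating partner of p52 in the noncanonical pathway, had 8.75, 8.12 and 6.91 CPM (422, 379 and 377 counts) at time 0. It stood at 42.2, 46.7 and 40.2 CPM at 12 hours and at 37.7, 48.6 and 43.6 CPM at 24 hours. Every later library lay far above the time 0 libraries, and the 12- and 24-hour ranges overlapped. Means were 7.93 ± 0.94, 43 ± 3.4 and 43.3 ± 5.5 CPM (SD, n = 3 at each time). The log2 fold change was 2.45 ± 0.08 (SE) at 12 hours (adjusted p = 6.94e-13, edgeR) and 2.45 ± 0.1 at 24 hours (adjusted p = 3.77e-10, edgeR). That value at 12 hours was higher than that of 99.8% of tested genes. From 12 to 24 hours it differed by 0.03 ± 0.08 on the log2 scale (adjusted p = 0.764, edgeR). There it was -0.19 with total counts (adjusted p = 0.0461, edgeR) and 0.03 with length and GC offsets (adjusted p = 0.753, edgeR).

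Nfkb2, which encodes the p100 precursor of p52, had 64, 63.4 and 65.4 CPM at time 0. At 12 hours it had 142, 161 and 142 CPM, and at 24 hours 136, 161 and 149 CPM. No later library came near the time 0 libraries, which lay close together, and the later times overlapped. Means were 64.3 ± 1.1, 148 ± 11 and 149 ± 13 CPM (SD, n = 3). The log2 fold change was 1.21 ± 0.04 (SE) at 12 hours (adjusted p = 5.07e-12, edgeR) and 1.21 ± 0.06 at 24 hours (adjusted p = 9.56e-10, edgeR). Between 12 and 24 hours it was 0.02 ± 0.06 (adjusted p = 0.763, edgeR). There it was -0.2 with total counts (adjusted p = 0.00909, edgeR) and 0.2 with length and GC offsets (adjusted p = 0.0028, edgeR), so its direction depends on the scaling.

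Rel, which encodes the transactivating subunit c-Rel that is best known from lymphoid cells, had 9.81, 8.79 and 9.38 CPM at time 0 (473, 410 and 512 counts). It had 18.7, 20.3 and 17.5 CPM at 12 hours and 22, 21.2 and 19.3 CPM at 24 hours. The later libraries lay apart from time 0 and overlapped with each other. Means were 9.33 ± 0.51, 18.9 ± 1.4 and 20.8 ± 1.4 CPM (SD, n = 3). The log2 fold change was 1.02 ± 0.08 (SE) at 12 hours (adjusted p = 6.88e-08, edgeR) and 1.16 ± 0.08 at 24 hours (adjusted p = 3.24e-08, edgeR). From 12 to 24 hours the log2 difference was 0.16 ± 0.07 (adjusted p = 0.0617, edgeR), or -0.06 with total counts and 0.28 with length and GC offsets (adjusted p = 0.00155, edgeR).

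Nfkb1, which encodes the p105 precursor of p50, had 78.8, 78.5 and 80 CPM at time 0. At 12 hours it had 111, 126 and 115 CPM, and at 24 hours 84.6, 110 and 94.2 CPM. Each later library was above each time 0 library, and the 24-hour libraries were all below those of 12 hours, as in 38.1% of tested genes, and spread more widely. Means were 79.1 ± 0.83, 117 ± 7.3 and 96.3 ± 13 CPM (SD, n = 3). The log2 fold change was 0.57 ± 0.04 (SE) at 12 hours (adjusted p = 3.29e-08, edgeR), just under the 1.5-fold threshold, and it reached 0.61 and 0.59, and so a call, without replicate 1 or replicate 3 of 12 hours. At 24 hours it was 0.29 ± 0.07 (adjusted p = 0.00348, edgeR), and with total counts it was 0.06 (adjusted p = 0.458, edgeR). The difference between 12 and 24 hours was -0.27 ± 0.08 (adjusted p = 0.00637, edgeR), the only one of the 5 with an adjusted p of 0.05 or less there in this fit, against 71.3% of the 11394 tested genes. With length and GC offsets it was -0.09 (adjusted p = 0.22, edgeR), and with total counts -0.49 (adjusted p = 7.04e-05, edgeR).

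Rela, the transactivating partner of p50 in the canonical dimer, had 91.9, 90.5 and 90.3 CPM at time 0. It had 110, 124 and 119 CPM at 12 hours and 100, 117 and 112 CPM at 24 hours. All later libraries lay above time 0, by a smaller step than for the other subunits at 12 hours, and the later times overlapped. Means were 90.9 ± 0.86, 118 ± 7.1 and 110 ± 8.6 CPM (SD, n = 3). The log2 fold change was 0.38 ± 0.04 (SE) at 12 hours (adjusted p = 3.95e-06, edgeR) and 0.27 ± 0.05 at 24 hours (adjusted p = 0.000472, edgeR). With total counts the 24-hour value was 0.05 (adjusted p = 0.409, edgeR). The difference between 12 and 24 hours was -0.08 ± 0.06 (adjusted p = 0.194, edgeR), and with total counts -0.31 (adjusted p = 0.000257, edgeR).

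**Figure D2:**
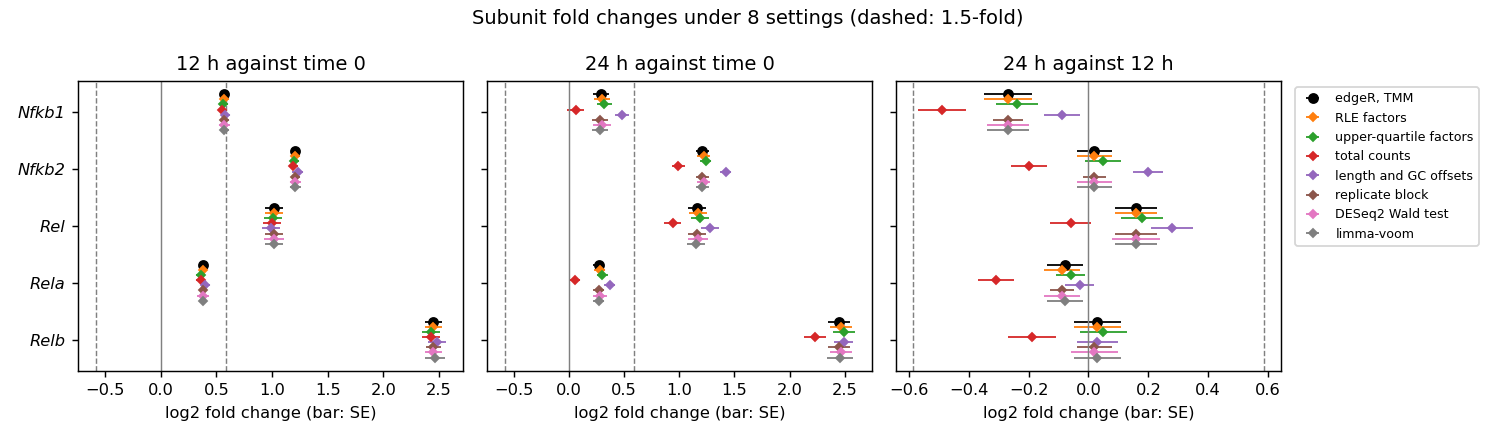
Log2 fold change (x axis, bars are SE) of each subunit (y axis) in the 3 comparisons, under edgeR with TMM factors and 7 other settings, with dashed lines at 1.5-fold. Relb, Nfkb2 and Rel lie beyond the line against time 0 in each setting drawn, and total counts give the lowest value at 24 hours for each subunit (2.23 for Relb, 0.05 for Rela).

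Total counts moved the median log2 fold change over all genes to -0.24 at 24 hours against time 0 and to -0.22 at 24 against 12 hours, so the subunit values above have to be read beside that shift. In the same setting the genes called higher and lower at 24 hours against time 0 went from 1374 and 1924 to 698 and 3008, and those at 24 against 12 hours from 1184 and 1740 to 484 and 2830. Relb, Nfkb2 and Rel were called against time 0 at 12 and at 24 hours in every alternative and without each library in turn.

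Replicate 2 was the highest of 3 libraries for 5 of 5 subunits at 12 hours and for 4 of 5 at 24 hours, and for 0 of 5 at time 0. Over 11543 genes, replicate 2 was the highest in 34.2% at 12 hours, 36.3% at 24 hours and 34.9% at time 0. Across the 9 libraries, Pearson's r between subunits (log2 CPM, given as a description, since all points share libraries and 3 times) ran from 0.73 for Nfkb1 with Rel to 0.99 for Nfkb2 with Relb, and was 0.95 for Nfkb1 with Rela.

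Levels of different subunits were compared per kilobase of transcript, since the merged exons run from 3072 bases (Rela) to 12061 bases (Nfkb1). Rela had the highest level at every time. Per kilobase of the longest protein-coding transcript, Rela had 33.5 ± 0.32, 43.4 ± 2.6 and 40.4 ± 3.2 CPM per kb at 0, 12 and 24 hours (SD, n = 3), Nfkb2 16.7 ± 0.28, 38.6 ± 2.8 and 38.6 ± 3.3, and Nfkb1 19.2 ± 0.2, 28.5 ± 1.8 and 23.4 ± 3.1. Relb had 3.59 ± 0.42, 19.5 ± 1.5 and 19.6 ± 2.5 CPM per kb, and Rel 1.25 ± 0.069, 2.53 ± 0.19 and 2.79 ± 0.19, the lowest at every time. At time 0 Rela was 1.95 to 2.03 times Nfkb2 within a library, and at 24 hours 1.02 to 1.07 times, with Rela above Nfkb2 in 3 of 3 libraries but overlapping ranges. Neighbors in the order at time 0 (Rela, Nfkb1, Nfkb2, Relb, Rel) did not overlap. At 12 hours only the ranges of Rela and Nfkb2 overlapped, and at 24 hours those of Rela and Nfkb2 and of Nfkb1 and Relb.

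The place of Nfkb1 depended on the length used, as its merged exons are much longer than its longest coding transcript (12061 against 4117 bases). Per kilobase of merged exons, Nfkb1 had 6.56 CPM per kb at time 0 and lay under Nfkb2 with 14. At 12 hours it had 9.74 against 11.1 for Relb, with overlapping ranges, and at 24 hours 7.99 against 11.1, without overlap. Rela (29.6, 38.4 and 35.7 CPM per kb) and Nfkb2 (14, 32.3 and 32.4) led at all 3 times by this length, and their ranges overlapped at 24 hours.

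Each subunit was also expressed as a share of the summed level of all 5, a measure that does not depend on the scaling between libraries. Rela, with 55.3% ± 0.21 at time 0 (SD, n = 3, merged exons), made up 40.8% ± 1.1 at 12 hours and 39.7% ± 0.75 at 24 hours. Relb went from 3.82% ± 0.44 to 11.8% ± 0.47 and 12.4% ± 0.49, and Nfkb2 from 26.2% ± 0.47 to 34.4% ± 0.59 and 36% ± 0.22. The share of Nfkb1 was 12.3% ± 0.17, 10.4% ± 0.049 and 8.85% ± 0.44, and that of Rel 2.34% ± 0.11, 2.69% ± 0.12 and 3.12% ± 0.42. For all 5 the shares of either later time did not overlap with those of time 0, in the direction given by their means. The two-sided exact permutation test of 3 against 3 libraries cannot go below 0.1, and it gave p = 0.1 for each of these 10 differences (0.115 after Benjamini-Hochberg adjustment over 15 tests). Between 12 and 24 hours the ranges overlapped for Rela and Relb (exact permutation p = 0.3, adjusted 0.3) and not for Nfkb1, Nfkb2 and Rel.

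**Figure D3:**
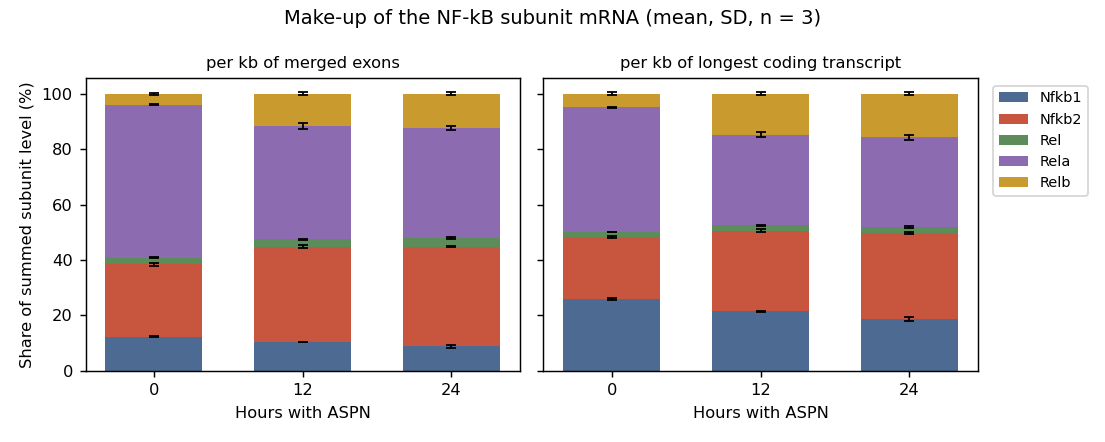
Mean share (%, y axis, from 0 to 100) of each subunit in the summed subunit level of a library, by hours with ASPN (x axis), per kb of merged exons (left) and of the longest coding transcript (right). Each SD bar (n = 3) belongs to the segment that ends at it. With both lengths the segments of Relb and Nfkb2 are larger at 12 and 24 hours than at time 0, and those of Rela and Nfkb1 smaller.

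With the longest coding transcript in place of merged exons, the shares at 0, 12 and 24 hours were 45.1%, 32.8% and 32.4% for Rela, 25.9%, 21.5% and 18.7% for Nfkb1 and 22.5%, 29.1% and 31% for Nfkb2. Relb had 4.83%, 14.7% and 15.7%, and Rel 1.68%, 1.91% and 2.25%. The direction against time 0 was the same with both lengths for all 5. Between 12 and 24 hours the shares of Rela overlapped with this length too (exact permutation p = 0.7), whereas those of Relb did not (exact permutation p = 0.1, adjusted 0.107), so the overlap for Relb depends on the length used.

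Ratios of raw counts within a library need no scaling between libraries. Their level carries the unlike lengths of the genes, so they are compared only between times. Nfkb2 to Nfkb1, the genes of the 2 precursors, had a median ratio of 0.812 at time 0 (0.808 to 0.818), 1.28 at 12 hours (1.23 to 1.28) and 1.58 at 24 hours (1.46 to 1.61), with no overlap between any times. Relb to Rela went from 0.0898 (0.0765 to 0.0953) to 0.376 (0.338 to 0.383) and 0.388 (0.377 to 0.417), where only the later times overlapped. Relb to Rel was 0.892, 2.29 and 2.26 (medians), and Rel to Rela 0.104, 0.163 and 0.182. Nfkb2 to Relb, the genes of the noncanonical dimer, had medians of 7.8, 3.44 and 3.41. Nfkb1 to Rela, those of the canonical dimer, had medians of 0.867, 1.01 and 0.846, and overlapped between 24 hours and time 0 (exact permutation p = 1). Of 18 tests on 6 ratios, the differences between 12 hours and time 0 all gave an exact permutation p of 0.1, the smallest possible here (0.129 after Benjamini-Hochberg adjustment).

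The genes most like each subunit over the 9 libraries were taken as the 3 highest Pearson's r of log2 CPM among 10356 genes, as a description with no test. Nfkb2 was closest to Icam1, an adhesion molecule for leukocytes (r = 0.998, mean 3.22, 24.8 and 22.7 CPM at 0, 12 and 24 hours), then to Plscr1 (r = 0.996) and to Relb (r = 0.995). Relb was closest to the chemokine genes Cxcl2 (r = 0.996, mean 0.696, 45.9 and 63.9 CPM) and Cxcl1 (r = 0.996, mean 5.79, 481 and 439 CPM), then to Nfkb2. Rel was closest to Cxcl2 (r = 0.99), Plscr2 and Abcc3 (both r = 0.989). Nfkb1, with its highest mean at 12 hours, was closest to S1pr2 (r = 0.98, mean 36.9, 72.1 and 49.3 CPM), Dusp8 and Tyk2 (both r = 0.97). Rela was closest to Dtx3l (r = 0.983, mean 35.1, 52.5 and 48.2 CPM), Nipal1 (r = 0.978) and Tnfaip8 (r = 0.975).

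Other genes of the pathway were read in 7 lists by role, with 80 genes, of which 76 are in the table. At 12 hours against time 0, 10 of 67 tested genes were called higher and 0 lower, where 1.6% of all tested genes were called. Of the 10, Tnf and Tlr2 passed the filter on low counts only through the 12-hour libraries, so nothing is read from that count. With at least 10 counts required in every library, 8 of 64 were called higher and 0 lower (12.5%, beside 1.47% of 11061 genes). At 24 hours against time 0, 12 rose and 8 fell of 64 tested (31.2%, beside 28.8%), and at 24 against 12 hours 4 rose and 17 fell of 67 (31.3%, beside 25.7%). The 17 include Tlr2, and with at least 10 counts in every library 4 rose and 16 fell of 65 (30.8%, beside 25.5%). These shares of the pathway genes at 24 hours lie near those of all tested genes. With total counts, 9 rose and 16 fell of 64 against time 0 (39.1%, beside 32.4% of all tested genes), and 2 rose and 29 fell of 67 against 12 hours (46.3%, beside 29.1%).

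The list of IkB proteins, which bind the subunits as inhibitors or nuclear cofactors, had the most called members at 12 hours, with 5 of 6 higher and a median log2 fold change of 2.19. Nfkbia, the main cytoplasmic inhibitor of Rela dimers, rose by 2.23 ± 0.03 (log2, SE) to a mean of 433 CPM from 92.2. The nuclear IkB gene Nfkbiz rose by 3.3 ± 0.06, Nfkbie by 2.74 ± 0.15, Bcl3, whose protein binds p50 and p52, by 2.14 ± 0.05, and Nfkbid by 2.04 ± 0.18 (adjusted p from 1.88e-16 to 4.13e-07, edgeR). Nfkbib had a log2 difference of 0.03 ± 0.06 (adjusted p = 0.782, edgeR). At 24 hours against time 0 the same 5 genes passed, with log2 fold changes of 1.8 for Nfkbia, 1.81 for Nfkbie, 1.66 for Nfkbiz, 1.03 for Bcl3 and 0.73 for Nfkbid, the last of which was not called with total counts (0.51, adjusted p = 0.0632, edgeR). From 12 to 24 hours 4 of the 6 fell: Nfkbiz fell by 1.62 ± 0.05, Nfkbid by 1.29 ± 0.18, Bcl3 by 1.09 ± 0.08 and Nfkbie by 0.91 ± 0.1 (log2, SE). Nfkbia had -0.42 ± 0.06 there, under the fold threshold. Over the same hours 0 of 5 subunits were called, and the difference between the IkB genes and the subunits was not tested.

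Of the genes that end the signal, 3 of 9 tested rose at 12 hours and 0 fell, with a list median of 0.08. Zc3h12a, an RNase for inflammatory mRNAs, rose by 3.12 ± 0.09 (log2, SE), Tnfaip3, which encodes the ubiquitin-editing enzyme A20, by 2.2 ± 0.05, and its binding partner Tnip1 by 0.91 ± 0.06 (adjusted p from 9.16e-15 to 7.9e-09, edgeR). At 24 hours against time 0, Zc3h12a (2.36 ± 0.13) and Tnfaip3 (1.45 ± 0.07) were called and the list median was 0.32, whereas Tnip1 had 0.29 ± 0.06. With total counts 2 of the list rose and 2 fell at 24 hours, and Tnip1 had 0.07 (adjusted p = 0.28, edgeR). These 3 fell between 12 and 24 hours, by 0.74 ± 0.11 for Zc3h12a, 0.72 ± 0.05 for Tnfaip3 and 0.6 ± 0.05 for Tnip1. With length and GC offsets, Tnfaip3 and Tnip1 were under the fold threshold in this comparison, at -0.55 and -0.53.

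The list of the canonical IKK complex with its activators and that of the noncanonical kinase with its regulators had no called member at 12 hours. Of the canonical IKK complex and its activators, 0 of 17 tested genes passed in either direction at 12 hours by edgeR (3 at an unadjusted p under 0.05) and 0 by DESeq2, and the list median was -0.01. The genes with an adjusted p of 0.05 or less were 2, the adaptor gene Myd88 at 0.34 ± 0.07 and Tab2 at 0.14 ± 0.03. Against time 0, Myd88 was lower at 24 hours (-0.29 ± 0.08) and Tab2 still higher (0.24 ± 0.04). From 12 to 24 hours Myd88 differed by -0.61 ± 0.07 (adjusted p = 3.66e-06, edgeR). At 24 hours 1 of 16 fell, Irak4, a kinase of Toll-like and interleukin receptors, by 0.67 ± 0.07, and the median was -0.04. Irak4 was under the fold threshold with length and GC offsets (-0.57), where 1 of the list was called higher and 0 lower. With total counts 0 rose and 2 fell. In the noncanonical list 0 of 8 tested genes passed at 12 hours by edgeR (4 at an unadjusted p under 0.05) and 0 by DESeq2 (median 0.12). The same 4 had an adjusted p of 0.05 or less, and all were higher and under the fold threshold: the adaptor genes Traf2 (0.56 ± 0.06) and Traf3 (0.52 ± 0.04), the deubiquitinase gene Otud7b (0.21 ± 0.03) and Birc2 (0.19 ± 0.05). Against time 0, Traf3 was lower at 24 hours (-0.24 ± 0.05) and Otud7b still higher (0.35 ± 0.04). From 12 to 24 hours Traf3 differed by -0.74 ± 0.05 (adjusted p = 1.5e-08, edgeR). Map3k14, which encodes NIK, had 0.06 ± 0.08 at 24 hours, with -0.16 under total counts and 0.28 under length and GC offsets. At 24 hours Traf2, an adaptor of tumor necrosis factor receptors, rose by 0.83 ± 0.06, and Fbxw7, a ubiquitin ligase component that acts on p100, fell by 1.95 ± 0.05, as did the ligase gene Birc2 by 0.62 ± 0.08 (median -0.09). Birc2 was under the fold threshold without replicate 2 of time 0 (-0.58) or replicate 2 of 24 hours (-0.54). With total counts 1 of the noncanonical list rose and 3 fell, and with length and GC offsets 2 rose and 2 fell.

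Most ligand genes were at low counts. Of 10 ligand genes 7 are in the table and 2 were tested at 12 hours. Tnf had 0 counts in each time 0 library, 11 to 24 at 12 hours and 10 to 18 at 24 hours, which is at least 6.34-fold higher at 12 hours and at least 4.7-fold higher at 24 hours than the floor of 3 counts per library (0.0643 CPM on average). Tnfsf12 had a log2 difference of -0.43 ± 0.12 at 24 hours, under the fold threshold, and with total counts it was called lower (-0.65, adjusted p = 0.000461, edgeR). Of the receptors, Tlr2 had 3 counts in all at time 0, each of them in replicate 2, 74 at 12 hours and 10 at 24 hours, a ratio, scaled by library size, of 27.1 at 12 hours (95% counting interval 8.92 to 134). Replicate 2 of 12 hours held 45 of the 74 counts, and the fitted log2 difference was 3.85 without it. Without replicate 2 of time 0 no counts remained at time 0. With at least 10 counts in every library, 0 of 9 receptor genes were called at 12 hours. At 24 hours Tnfrsf12a, the receptor of Tnfsf12 and an activator of the noncanonical pathway, rose by 1.33 ± 0.06, and Tlr4 and Tnfrsf1b fell, by 1.05 ± 0.06 and 0.68 ± 0.08 (1 higher and 2 lower of 9 tested, median -0.28). With total counts 1 rose and 4 fell, with a median of -0.5. Tnfrsf1b was under the fold threshold with length and GC offsets (-0.5).

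Of 15 nuclear partners and modifiers of the subunits, 0 passed at 12 hours in either direction by edgeR (3 at an unadjusted p under 0.05) and 0 by DESeq2 (median 0.01). At 24 hours 3 rose, Rps3 (0.96 ± 0.05), Kpna3 (0.75 ± 0.04) and Kpna4 (0.64 ± 0.04), a ribosomal protein that can join Rela dimers and 2 nuclear import factors. The import factor gene Kpna2 fell by 1.9 ± 0.06, and the acetyltransferase genes Ep300 and Crebbp, whose proteins act as coactivators of Rela, fell by 1.23 ± 0.05 and 1.02 ± 0.05 (median 0.11). With total counts 1 rose and 4 fell, and Kpna3 and Kpna4 were under the fold threshold (0.53 and 0.42). Birc2, Map3k14, Traf3, Otud7b, Myd88, Tab2, Tnfsf12, Tnfrsf1b, Nfkbib, Kpna3, Kpna4, Ep300 and Crebbp were named after their values were seen.

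**Figure D4:**
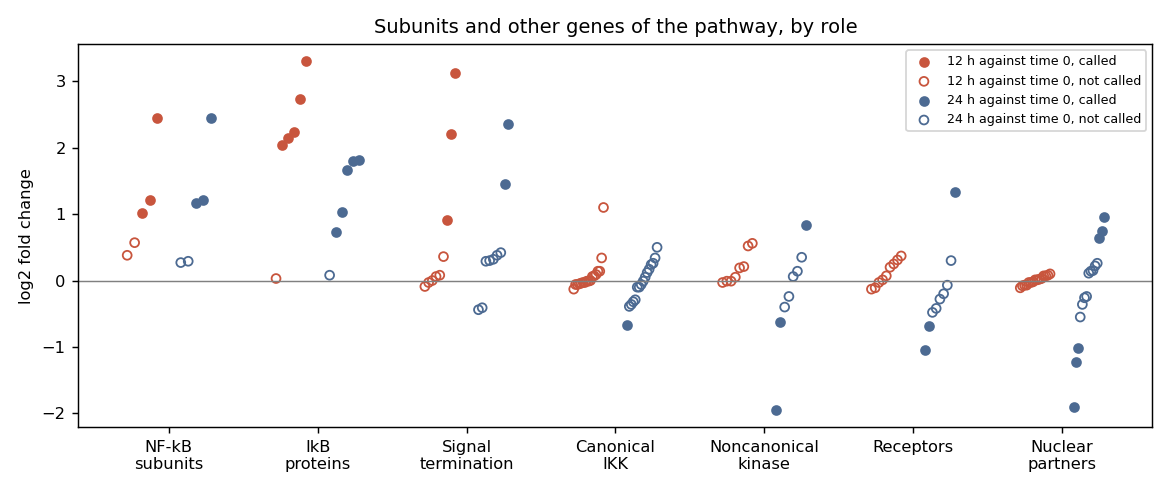
Log2 fold change (y axis) against time 0 of the tested genes of each role (x axis), at 12 hours (red) and 24 hours (blue), with filled circles for called genes. The ligand list and Tlr2 are not drawn. The called genes drawn for 12 hours are all higher and lie among the subunits, the IkB proteins and the signal-termination genes, and at 24 hours genes of other roles are called too, in both directions, where 28.8% of all tested genes were called against 1.6% at 12 hours.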

How the data were processed

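The authors prepared TruSeq mRNA libraries from MyC-CaP cells, sequenced them as paired-end reads, aligned them to GRCm38.p6 with STAR and counted reads per gene with featureCounts. Per the labels, the deposited values are these raw counts, with no normalization. The strand setting of the counting is not given in the sources used here. LNCaP and NRG1 libraries were not analysed here.

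Counts were tested as deposited in R 4.3.3 with edgeR 4.0.16: filterByExpr, TMM factors, quasi-likelihood test, Benjamini-Hochberg adjustment over all tested genes, in 3 comparisons of 3 against 3 libraries with no block. SE is the absolute log2 fold change divided by the square root of F. CPM values are TMM-scaled over 9 libraries. Shares and ratios were compared by two-sided exact permutation. Lengths, overlapping genes and GC content came from GENCODE M21, which held 15374 of the 15384 genes, in place of the authors' M24. The Tlr2 interval and the floor of 3 counts cover counting error only. Scripts were tested on simulated data.

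Alternatives were DESeq2 1.42.0, limma-voom (limma 3.58.1), RLE, upper-quartile and total-count scaling, no low-count filter, at least 10 counts in every library, 1 fit of all 9 libraries, loess offsets on length and GC content (span 0.3), the replicate block, the adjusted p alone, and leaving out each library.

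The 5 members, the 7 pathway lists and the 4 marker lists were chosen with earlier results of these data known. Named were the members, the 3 genes most correlated with each (log2 CPM with a prior count of 2, mean of at least 50 counts), every list gene called at 12 hours, the highest and lowest called gene of each list at 24 hours, and untested genes with their counts. Genes named after their values were seen are given as such. Not tested in any of the 3 comparisons under the main filter were Birc3 (2 to 12 counts per library), Lta (1 to 8), Ltb (2 to 19), Il1a, Tnfsf11, Tnfsf13b, Tnfrsf11a (0 to 3 each), Cd40 (0 to 5) and Tnfrsf13c (0 to 8). Tnip3, Cd40lg, Il1b and Tnfsf14 were not analysed here. Some members of the epithelial marker list, and its summed level, are not reported here.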

Additional observations from a re-analysis of the deposited data

How the results depend on the processing

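Calls of the 5 subunits against time 0 were the same in 11 alternatives of test, scaling, filter, offsets or block at each time. With the adjusted p alone, 1178 genes passed at 12 hours, 8119 at 24 hours and 8124 between 12 and 24 hours, whereas the other gene counts stayed within 1.5 times the main count. Without 1 library in turn, the log2 fold change of Nfkb1 at 12 hours ran from 0.52 to 0.61, past the fold threshold without replicate 1 or 3 of 12 hours. Between 12 and 24 hours, total counts reversed Nfkb2 (-0.2), Rel (-0.06) and Relb (-0.19), and leaving out 1 library gave -0.04 to 0.08 for Nfkb2 and -0.06 to 0.12 for Relb. By construction total counts omit the factors that differ at 24 hours. With length and GC offsets Nfkb2 was 0.2 higher there. Over the alternatives the 24-hour log2 fold change against time 0 was 0.06 to 0.48 for Nfkb1 and 0.05 to 0.37 for Rela. No share difference of a subunit changed direction in 105 alternative values, each with the other gene length or without 1 library. The length and GC offsets were not applied to shares.

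Of the named pathway genes, 828 alternative values kept their side of the threshold, 16 lost a call, 2 gained it, and 1 changed direction (Map3k14 at 24 hours against time 0, -0.16 with total counts). Besides the losses given in the report, Tnip1 was not called between 12 and 24 hours with upper-quartile factors (-0.58), without replicate 2 of 12 hours (-0.54) or without replicate 1 of 24 hours (-0.56), and Nfkbia was called lower there with total counts (-0.64), as was Tnfsf12 at 24 hours against time 0 (-0.65). The Tnf and Tlr2 calls rest on counts under 10 at time 0, so the filter of at least 10 counts leaves both untested. With no filter, with all 9 libraries in 1 fit, without any 1 of the time 0 libraries, or without replicate 2 of 24 hours, 1 ligand gene was called higher at 24 hours against time 0.

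With the replicate number as a block, 172, 3247 and 2926 genes were called at 12 hours, 24 hours and between them, and the block alone changed no call of a subunit or named pathway gene. Deviations of same-numbered libraries had mean correlations of -0.02, -0.06 and 0.02. In 1 of 9 checks (3 numbers in each of 3 comparisons) a library correlated best with its own number. With 3 libraries at a time, these values cannot show whether same-numbered libraries shared a culture or preparation. Of the 7 ligand genes in the table, the 5 left out by the main low-count filter in all 3 comparisons had at most 19 counts in a library, so their values carry wide counting error.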
